A study of Homo sapiens and Mus musculus with 12 samples.

Results

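The genes described here are 44 genes of the integrated stress response and of amino acid supply, chosen by their symbols: ATF4 and its known targets, enzymes that make amino acids, amino acid transporters and tRNA synthetases. The choice was made with earlier results of these data known. The human symbols and the mouse genes of the same symbol were looked up among the 63677 human and 47729 mouse gene identifiers of the count files, and all 44 were found once in each species. They were ordered into 13 regulators and stress effectors, 11 enzymes of amino acid synthesis and one-carbon metabolism, 7 amino acid transporters, and 13 genes of tRNA charging and export. RNA-seq was done on 2 cell lines labelled as wild type. MDA-MB-231 comes from a human TNBC and 4T1 from a mouse mammary carcinoma. Cells of each line received 1 µmol/L ponatinib, which inhibits several tyrosine kinases, or its solvent DMSO for 24 h, with 3 libraries per group and 12 in all. Each line was grown alone in culture, so the groups hold no host cells, and 1 line stands for each species. Neither the labels nor the methods say whether the 3 libraries of a group came from separate cultures, so the p-values measure the spread between these libraries, which may be technical. In bulk RNA, fewer cells with a transcript and less of it per cell cannot be told apart.

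The integrated stress response starts when one of several kinases phosphorylates the translation factor eIF2, which slows protein synthesis and favours translation of *ATF4* mRNA. ATF4 is a transcription factor that, with partners of the C/EBP family, raises genes for amino acid synthesis, import and tRNA charging, and also genes that restrain growth or promote cell death, such as *DDIT3*, which encodes CHOP. Tumour cells are known to use this program to meet their demand for serine, asparagine and other amino acids.

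The MDA-MB-231 libraries held 15012884 to 17301760 counts each and those of 4T1 17800675 to 18951493. Mitochondrially encoded genes held 5.17% to 5.30% of the counts in the MDA-MB-231 DMSO libraries and 6.38% to 6.56% in the ponatinib libraries, with no overlap, against 0.732% to 1.15% and 0.936% to 1.32% in 4T1. Of 5 epithelial markers checked against the label of epithelial cells, 4 were above 1 CPM in MDA-MB-231, where *CDH1* was at or near 0, and all 5 were present in 4T1. Of 9 markers of leukocytes, endothelium, fibroblasts and hepatocytes, 7 stayed under 1 CPM in every library of each line, with *PTPRC*, *LYZ* and *PECAM1* at 0 in MDA-MB-231 and *Col1a2* at 0 in 4T1. In MDA-MB-231 they summed to 26.8 to 31.8 CPM with DMSO and 81.5 to 88.6 CPM with ponatinib, most of it *COL1A1*, and 6.84 to 8.79 and 10.8 to 11.7 CPM in 4T1. The part of these shifts in the results on the 44 genes was not tested.

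The C/EBP-ATF response element is the site at which ATF4 and C/EBP partners bind many amino acid response genes. The genes were chosen as ATF4 and its known targets, so its share among them is not independent of that choice and is given as a description. Its core, TGATGNAA, was searched on both strands in windows from 250 bases before to 50 bases after annotated starts. In human windows (RefSeq, GRCh38.p14), 15 of the 37 members with a window held it, or 40.5%, beside 4.46% of all 27305 genes. RefSeq lists several starts for some genes, giving the 37 members 59 windows (1.59 per member, beside 1.29 per gene over all genes), and at the most upstream start alone 9 members held it, or 24.3%, beside 3.67%. In mouse windows (GRCm39, GENCODE vM39 starts), 10 of 42 members held it, or 23.8%, beside 3.80% of 20737 genes. The 7 genes that held it in both species were *AARS1*, *ATF3*, *CARS1*, *CHAC1*, *GARS1*, *IARS1* and *TARS1*. By role, the human element stood in the windows of 3 of 12 regulators, 1 of 7 enzymes, 4 of 7 transporters and 7 of 11 tRNA genes, and the mouse element in those of 3 of 13, 2 of 11, 0 of 7 and 5 of 11. Of the members that rose in MDA-MB-231 and fell in 4T1, 4 of 18 held it in human and 3 of 21 in mouse, beside 11 of 19 and 7 of 21 of the other members. By call in MDA-MB-231, the human element stood in 7 of 25 members that rose, 3 of 3 that fell (*SLC7A1*, *SLC1A5* and *TARS1*) and 5 of 8 not called. By call in 4T1, the mouse element stood in 0 of 2 that rose, 4 of 28 that fell and 6 of 11 not called. None of the 9 human and 10 mouse windows of cytosolic synthetases outside the group, with the scaffold proteins of the multisynthetase complex, held it. The CRE, TGACGTCA, stood in no member window of either species, beside 2.25% of human and 2.44% of mouse genes. The E-box, CACGTG, stood in 4 human members (10.8%, beside 8.77% of genes) and in 9 mouse members (21.4%, beside 7.94%). A match of letters is a description and not a shown binding site. *NUPR1*, *PSPH*, *SHMT2*, *ALDH1L2*, *GPT2*, *LARS1* and *YARS1* in human and *Lars1* and *Nars1* in mouse were not searched.

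Human stretches of 48 bases around the element are shown for regulators, an enzyme and tRNA genes, some that rose in MDA-MB-231 (*CHAC1*, *CEBPG*, *ASNS*, *AARS1*) and some that were not called (*ATF3*, *GARS1*). The members that fell in MDA-MB-231 and hold the element are not shown. Each stretch shown reads 5′ to 3′ along its own gene, and capitals mark the core, which reads as its reverse complement where the match lies on the other strand. In GRCh38.p14 they lie at chr1:212565196-212565243 (*ATF3*, plus strand), chr15:40953242-40953289 (*CHAC1*, plus strand), chr19:33374051-33374098 (*CEBPG*, plus strand), chr7:97872449-97872496 (*ASNS*, minus strand), chr16:70289666-70289713 (*AARS1*, minus strand), chr7:30594825-30594872 (*GARS1*, plus strand), each upstream of the RefSeq start of its window. That start is the GENCODE canonical one for *CHAC1*, *ASNS*, *AARS1* and *GARS1*, while it lies 43354 bases from it for *ATF3* and 404 bases inside the gene for *CEBPG*.
ATF3: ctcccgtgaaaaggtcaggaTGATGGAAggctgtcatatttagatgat
CHAC1: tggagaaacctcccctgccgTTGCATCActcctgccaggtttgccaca
CEBPG: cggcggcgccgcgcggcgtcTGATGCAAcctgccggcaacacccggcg
ASNS: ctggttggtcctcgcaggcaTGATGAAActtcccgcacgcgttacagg
AARS1: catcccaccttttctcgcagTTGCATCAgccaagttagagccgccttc
GARS1: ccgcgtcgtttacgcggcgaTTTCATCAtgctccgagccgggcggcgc

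Mouse stretches are shown for *Atf3*, *Chac1* and *Pck2*, which fell in 4T1, and *Ddit3*, which was not called. In GRCm39 they lie at chr1:190915613-190915660 (*Atf3*, minus strand), chr2:119181510-119181557 (*Chac1*, plus strand), chr10:127126341-127126388 (*Ddit3*, plus strand), chr14:55777600-55777647 (*Pck2*, plus strand), also upstream of the start. The human and mouse *CHAC1* stretches shared 44 of 48 bases (91.7%) without gaps.
Atf3: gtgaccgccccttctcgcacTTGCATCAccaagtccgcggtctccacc
Chac1: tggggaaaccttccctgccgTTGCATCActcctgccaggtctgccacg
Ddit3: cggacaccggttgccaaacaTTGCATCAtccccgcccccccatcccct
Pck2: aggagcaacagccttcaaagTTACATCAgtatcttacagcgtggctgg

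**Figure D1:**
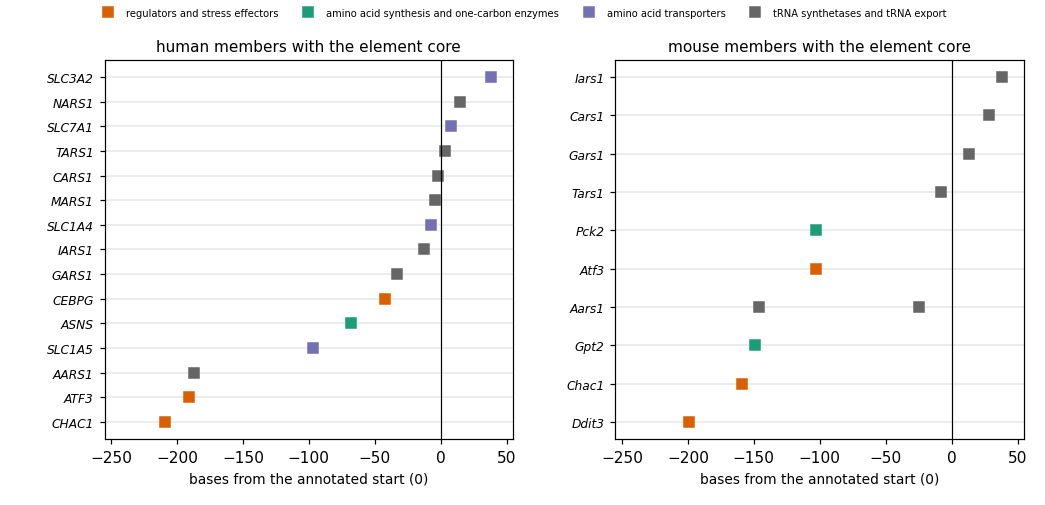
Position of each match to the element core in human (left) and mouse (right) promoter windows, in bases from the annotated start at 0; squares are coloured by role. Of 15 human and 10 mouse members with a match, most carry 1, and the mouse gene *Aars1* carries 2.

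The group ran in opposite directions in the 2 lines. Its members were chosen with earlier results of these data known. Shares over all genes are therefore set beside them, here and below, as a description and not as an independent test. In MDA-MB-231, 29 of the 42 members that passed the filter on low counts rose with ponatinib and 3 fell, while 27.2% of all 14610 genes tested rose and 26.8% fell (edgeR's quasi-likelihood test, Benjamini-Hochberg adjusted p under 0.05). In 4T1, 2 of 43 tested members rose and 30 fell, while 29.5% of all 13286 genes tested rose and 29.4% fell. Tested members had a median log2 fold change of 0.42 in the human and -0.30 in the mouse line, against 0.02 and -0.00 over all genes tested. The study called genes with DESeq2 at P under 0.05, unadjusted, with a change of 1.5-fold or more. For its enrichment analysis of lowered genes it asked for a larger change. By the 1.5-fold rule, applied here to the unadjusted p of edgeR, 14 members were higher and 1 was lower in MDA-MB-231, beside 19.3% and 14.5% of all genes. In 4T1, 1 was higher and 11 were lower, beside 18.4% and 13.1%, so most of the changes were smaller than 1.5-fold. The ponatinib and DMSO libraries did not overlap in CPM for 35 of the 42 members in MDA-MB-231, beside 60.4% of all genes tested, and for 38 of 43 in 4T1, beside 63.4%. *ALDH1L2* and *CBS* in MDA-MB-231 and *Cbs* in 4T1 did not pass the filter. Scaled by total counts, the median log2 fold change over all genes stood at 0.11 (MDA-MB-231) and 0.12 (4T1), and rises made up 60.0% and 62.3% of all calls in place of 50.4% and 50.1%. With that scaling 30 members rose and 1 fell in MDA-MB-231, and 4 rose and 22 fell in 4T1.

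Of the 42 members tested in both lines, 21 rose in MDA-MB-231 and fell in 4T1, a pattern held by 5.05% of the 9838 shared genes tested in both. The reverse pattern, which 5.51% of those genes held, was held by 0 members. The 21 were 8 regulators and effectors (*ATF4*, *ATF5*, *CEBPG*, *CHAC1*, *DDIT4*, *GDF15*, *NUPR1* and *SESN2*), 7 enzymes (*ASNS*, *CTH*, *PCK2*, *PHGDH*, *PSAT1*, *PSPH* and *SHMT2*), 2 transporters (*SLC6A9* and *SLC7A5*) and 4 tRNA genes (*CARS1*, *EPRS1*, *WARS1* and *XPOT*). A pair of genes rose in both lines, *STC2* and *TRIB3*, and a pair fell in both, *SLC1A5* and *SLC7A1*. A rise in MDA-MB-231 without a call in 4T1 was seen for 6 genes, *AARS1*, *DDIT3*, *GPT2*, *SARS1*, *SLC1A4* and *SLC3A2*, and a fall in MDA-MB-231 without a call in 4T1 for *TARS1*. Another 6, *ATF3*, *LARS1*, *MTHFD2*, *NARS1*, *SLC38A2* and *YARS1*, fell in 4T1 without a call in MDA-MB-231, and *CEBPB*, *GARS1*, *IARS1* and *MARS1* were called in neither line.

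The difference between the lines was tested directly as the interaction of line and treatment over 12488 shared genes. The log2 fold change was higher in MDA-MB-231 than in 4T1 for 32 of the 43 members tested and lower for 1, *TARS1*, while 18.9% of all shared genes were higher and 23.1% lower. By role the 32 were 11 of 13 regulators and effectors, 9 of 10 enzymes, 6 of 7 transporters and 6 of 13 tRNA genes. The median difference of the members was 0.78 on the log2 scale, against -0.03 over all shared genes. The differences were widest for *NUPR1*, at 6.69 (SE 0.21, edgeR adjusted p = 1.07e-13), for *DDIT4*, at 4.88 (SE 0.18, edgeR adjusted p = 4.87e-13), and for *GDF15*, at 4.41 (SE 0.16, edgeR adjusted p = 4.87e-13). *NUPR1* was near the floor with DMSO in MDA-MB-231, and passed the filter on low counts there through its ponatinib libraries.

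**Figure D2:**
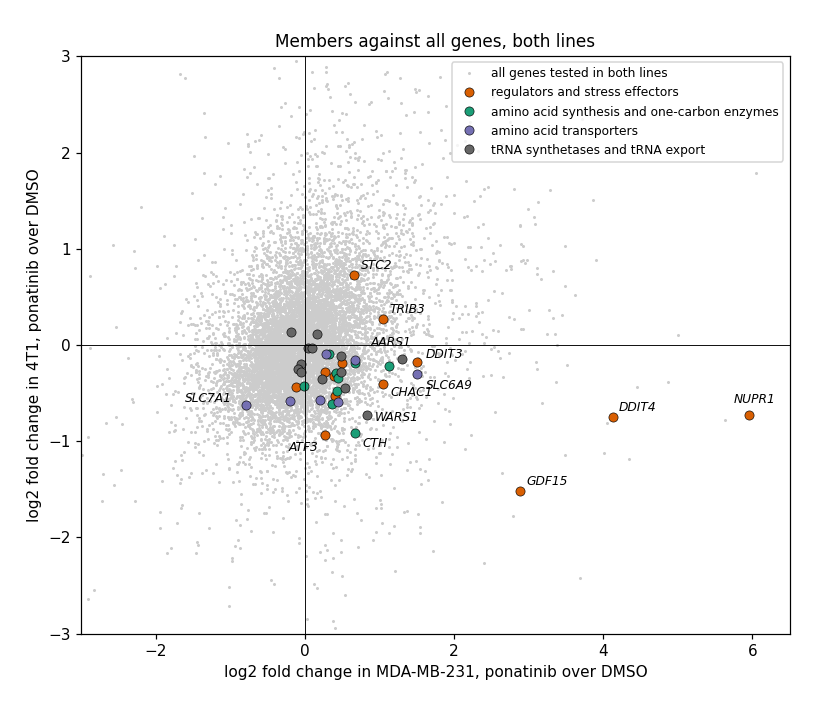
Log2 fold change (ponatinib over DMSO) in MDA-MB-231 on the x axis and in 4T1 on the y axis, for members coloured by role over all genes tested in both lines in grey (73 of these lie outside the axes). The 21 members called in opposite directions fall in the lower right corner, with *NUPR1*, *DDIT4* and *GDF15* farthest to the right, and no member was called in the upper left.

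Among the 13 regulators and stress effectors, 11 rose and 0 fell in MDA-MB-231 (median log2 fold change 0.66), and 2 rose and 9 fell in 4T1 (median -0.41). Beside this and the other roles, 27.2% of all genes tested rose and 26.8% fell in MDA-MB-231. In 4T1 the shares over all genes were 29.5% and 29.4%. *ATF4*, the transcription factor at the centre of the response (ENSG00000128272, chr22:39519695-39522683 of hg38, plus strand), was at 675, 597 and 593 CPM with DMSO and 832, 815 and 805 CPM with ponatinib in MDA-MB-231. *Atf4* in 4T1 (ENSMUSG00000042406, chr15:80139372-80141745 of GRCm39, plus strand) was at 1298, 1098 and 1175 CPM with DMSO and 959, 915 and 978 CPM with ponatinib. All ponatinib libraries lay above all DMSO libraries in MDA-MB-231 and below them in 4T1. The mean and SD of 3 libraries were 622 ± 45.9 CPM with DMSO and 817 ± 13.9 CPM with ponatinib for the human gene, whose log2 fold change was 0.39 (SE 0.08, edgeR adjusted p = 0.000995). For the mouse gene they were 1190.1 ± 101 CPM and 951 ± 32.1 CPM, and its log2 fold change was -0.32 (SE 0.08, edgeR adjusted p = 0.00336). These are mRNA levels, and ATF4 protein, which is set largely by translation, was not measured. The lines differed in *ATF4* response by 0.72 (SE 0.12, edgeR adjusted p = 5.58e-05) on the log2 scale.

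The largest rises in MDA-MB-231 were those of *NUPR1* and *DDIT4*. *NUPR1*, which encodes a small stress-induced chromatin-associated protein (ENSG00000176046, chr16:28532708-28539008 of hg38, minus strand), was at 0.796, 0.389 and 0.629 CPM with DMSO and 44.7, 36.3 and 33.1 CPM with ponatinib. This is 28 counts with DMSO, near the floor, and 1883 with ponatinib, summed over 3 libraries each. The gene passed the filter on low counts through its ponatinib libraries, so the size of its rise is uncertain. The log2 fold change was 5.96 (SE 0.22, edgeR adjusted p = 3.82e-09). In 4T1, *Nupr1* (ENSMUSG00000030717, chr7:126222414-126230033 of GRCm39, minus strand) was already abundant with DMSO and fell, at 248, 241 and 228 CPM with DMSO and 139, 142 and 152 CPM with ponatinib, a log2 fold change of -0.73 (SE 0.07, edgeR adjusted p = 1.02e-06). *DDIT4*, which encodes REDD1, an inhibitor of the growth kinase complex mTORC1 (ENSG00000168209, chr10:72273919-72276036 of hg38, plus strand), was at 8.42, 10.9 and 13.5 CPM with DMSO and 175, 184 and 217 CPM with ponatinib in MDA-MB-231, giving a log2 fold change of 4.13 (SE 0.15, edgeR adjusted p = 4.17e-09). *Ddit4* (ENSMUSG00000020108, chr10:59785491-59788492 of GRCm39, minus strand) was at 485, 416 and 443 CPM with DMSO and 298, 249 and 254 CPM with ponatinib in 4T1, a log2 fold change of -0.75 (SE 0.09, edgeR adjusted p = 5.08e-06). For both genes the groups did not overlap in either line, and the MDA-MB-231 libraries with ponatinib stayed below every 4T1 DMSO library in CPM.

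*GDF15*, a secreted stress cytokine of the TGF-β superfamily (ENSG00000130513, chr19:18374731-18389176 of hg38, plus strand), was at 6.90, 4.86 and 6.79 CPM with DMSO and 49.1, 48.0 and 40.2 CPM with ponatinib in MDA-MB-231, giving a log2 fold change of 2.89 (SE 0.14, edgeR adjusted p = 3.65e-08). *Gdf15* (ENSMUSG00000038508, chr8:71082038-71091537 of GRCm39, minus strand) showed the largest fall of any member in 4T1, from 161, 142 and 143 CPM with DMSO to 55.2, 48.7 and 51.2 CPM with ponatinib, a log2 fold change of -1.52 (SE 0.08, edgeR adjusted p = 1.7e-09). The libraries of the lines were far apart with DMSO and close together with ponatinib. *CHAC1*, which degrades glutathione, was at 29.8, 27.5 and 23.5 CPM with DMSO and 58.8, 51.7 and 56.1 CPM with ponatinib in MDA-MB-231, giving a log2 fold change of 1.05 (SE 0.10, edgeR adjusted p = 7.12e-06). In 4T1 *Chac1* was at 397, 363 and 371 CPM with DMSO and 281, 273 and 300.1 CPM with ponatinib, a log2 fold change of -0.41 (SE 0.07, edgeR adjusted p = 0.000277). The groups did not overlap in either line, and both promoters carry the element shown above. *SESN2*, a leucine sensor upstream of mTORC1, was at 32.1, 31.7 and 30.0 CPM with DMSO and 44.8, 42.1 and 45.2 CPM with ponatinib in MDA-MB-231, giving a log2 fold change of 0.49 (SE 0.09, edgeR adjusted p = 0.000451). *Sesn2* was at 111, 104 and 109 CPM with DMSO and 96.3, 88.5 and 101 CPM with ponatinib in 4T1, a log2 fold change of -0.18 (SE 0.07, edgeR adjusted p = 0.0465), the smallest called fall among the regulators. This 4T1 call was lost without any one of DMSO replicates 1, 2 and 3 and ponatinib replicates 1 and 2 (edgeR adjusted p 0.0540 to 0.241).

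*ATF5*, a close relative of ATF4, was at 32.3, 31.3 and 29.6 CPM with DMSO and 33.4, 39.9 and 38.8 CPM with ponatinib in MDA-MB-231, giving a log2 fold change of 0.27 (SE 0.10, edgeR adjusted p = 0.0346). That call was lost without DMSO replicate 2 or 3 or ponatinib replicate 2 or 3 (edgeR adjusted p 0.0896 to 0.143). *Atf5* in 4T1 was at 288, 285 and 271 CPM with DMSO and 222, 226 and 245 CPM with ponatinib, a log2 fold change of -0.28 (SE 0.07, edgeR adjusted p = 0.00351). Exons of *NUP62* overlap *ATF5* on the opposite strand, and held 17381 counts in MDA-MB-231 beside 3305 for *ATF5* and, in 4T1, 12849 beside 28415. Since the strand setting is not stated, both *ATF5* calls are less certain. *CEBPG*, a C/EBP partner of ATF4, was at 73.0, 79.8 and 74.0 CPM with DMSO and 98.3, 101 and 99.9 CPM with ponatinib in MDA-MB-231, giving a log2 fold change of 0.40 (SE 0.07, edgeR adjusted p = 0.000766). *Cebpg* was at 118, 146 and 151 CPM with DMSO and 87.6, 105 and 92.9 CPM with ponatinib in 4T1, a log2 fold change of -0.54 (SE 0.10, edgeR adjusted p = 0.000277). For these genes the ponatinib libraries lay apart from the DMSO libraries on opposite sides in the 2 lines. *ATF3*, an ATF4-induced repressor, was low in MDA-MB-231, at 7.23, 7.58 and 7.05 CPM with DMSO and 8.01, 8.54 and 9.69 CPM with ponatinib, with a log2 fold change of 0.27 (SE 0.14, edgeR adjusted p = 0.128). In 4T1, *Atf3* was abundant and fell, at 377, 344 and 362 CPM with DMSO and 181, 194 and 189.6 CPM with ponatinib, a log2 fold change of -0.94 (SE 0.07, edgeR adjusted p = 6.94e-08). All DMSO libraries of 4T1 were above all ponatinib libraries, and the difference between the lines was 1.21 (SE 0.13, edgeR adjusted p = 5.09e-07) on the log2 scale.

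*DDIT3*, which encodes the pro-death factor CHOP, rose in MDA-MB-231 at 14.8, 10.7 and 9.19 CPM with DMSO and 38.7, 32.1 and 27.1 CPM with ponatinib, a log2 fold change of 1.496 (SE 0.18, edgeR adjusted p = 2.5e-05). In 4T1 its level was 120.0 to 128 CPM with DMSO and 102 to 115 CPM with ponatinib, a log2 fold change of -0.17 (SE 0.07, edgeR adjusted p = 0.0576). It passed the threshold only with the replicate number as a block (edgeR adjusted p = 0.0253) and with DESeq2's size factors (0.0476). *DDIT3* overlaps *MARS1*, a member on the opposite strand, which held 28793 counts in MDA-MB-231 against 2148 for *DDIT3*. The strand setting of the counting is not stated, so its values are less certain. *TRIB3*, a pseudokinase induced by CHOP, rose in both lines: its log2 fold change was 1.05 (SE 0.09, edgeR adjusted p = 2.69e-06) in MDA-MB-231, where it was at 94.0 to 110.3 CPM with DMSO and 188 to 225 CPM with ponatinib. In 4T1 *Trib3* was at 405 to 444 CPM with DMSO and 496 to 533 CPM with ponatinib, a log2 fold change of 0.27 (SE 0.07, edgeR adjusted p = 0.00635), and the difference between the lines was 0.79 (SE 0.12, edgeR adjusted p = 2.83e-05) on the log2 scale. *STC2*, a secreted glycoprotein, also rose in both lines, and was at 1.55 to 2.52 CPM with DMSO and 2.96 to 3.95 CPM with ponatinib in MDA-MB-231, giving a log2 fold change of 0.66 (SE 0.25, edgeR adjusted p = 0.0381). In 4T1, *Stc2* was at 55.3 to 55.9 CPM with DMSO and 89.1 to 93.5 CPM with ponatinib, a log2 fold change of 0.72 (SE 0.07, edgeR adjusted p = 9.8e-07). The MDA-MB-231 *STC2* call was lost without DMSO replicate 2 or 3 or ponatinib replicate 2 (edgeR adjusted p 0.0685 to 0.152) and with DESeq2's defaults (adjusted p = 0.0593). *CEBPB*, another C/EBP factor, varied widely among libraries, at 165, 107 and 177 CPM with DMSO and 181, 128 and 103 CPM with ponatinib in MDA-MB-231 and, in 4T1, 135 to 186 CPM with DMSO and 59.2 to 150.2 CPM with ponatinib. Its log2 fold changes were -0.12 (SE 0.20, edgeR adjusted p = 0.627) and -0.44 (SE 0.24, edgeR adjusted p = 0.125) and the groups overlapped in both lines. With the replicate number as a block *Cebpb* was called lower in 4T1 (edgeR adjusted p = 6.99e-07), as it was with no filter on low counts (1.09e-06) and without ponatinib replicate 1 of that line (0.0374). With no filter its log2 fold change was -0.43, near the main value, so the estimated spread had changed and not the size of the fall. DESeq2's defaults did not call *Cebpb* (DESeq2 adjusted p = 0.382). Without ponatinib replicate 2 of 4T1, the library at 59.2 CPM, its log2 fold change was only -0.11 (edgeR adjusted p = 0.428). The size of the fall thus depends on that library. The calls of *Cebpb* are therefore uncertain, and why the estimated spread changed was not tested. In MDA-MB-231 *CEBPB* was called lower without ponatinib replicate 1 (edgeR adjusted p = 0.0470).

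**Figure D3:**
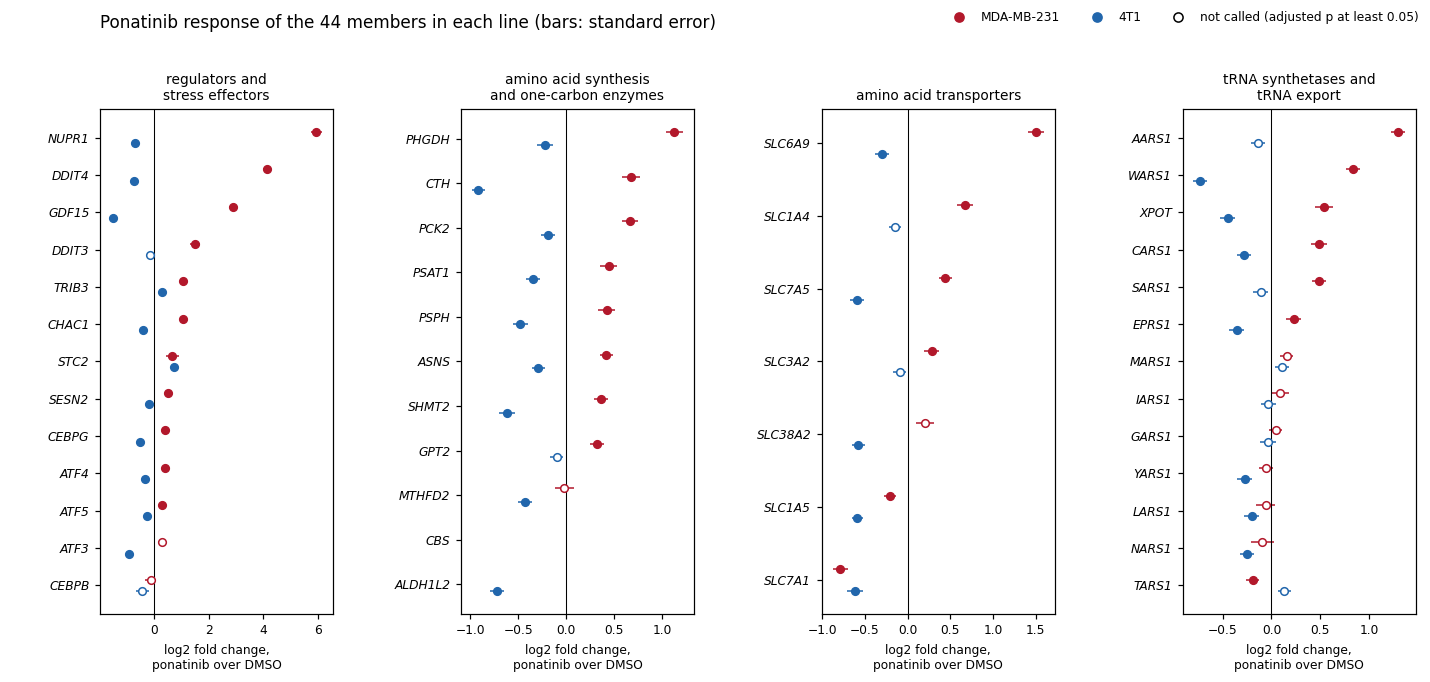
Log2 fold change (ponatinib over DMSO) of every member by role, with MDA-MB-231 in red and 4T1 in blue; bars are standard errors, open circles mark members not called, and each panel has its own x axis. *CBS* was tested in neither line and *ALDH1L2* in 4T1 alone. Filled red points lie to the right of 0 for 29 members and filled blue points to the left for 30.

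Of the enzymes, 8 of 9 tested rose and 0 fell in MDA-MB-231 (median log2 fold change 0.42), and 9 of 10 fell and 0 rose in 4T1 (median -0.39). Serine is made from a glycolytic intermediate by *PHGDH*, *PSAT1* and *PSPH*, and *SHMT2* then splits it in mitochondria to feed the folate cycle. *PHGDH*, which catalyses the first step, was at 232, 197 and 192 CPM with DMSO and 489, 442 and 427 CPM with ponatinib in MDA-MB-231, giving a log2 fold change of 1.13 (SE 0.09, edgeR adjusted p = 1.52e-06), the largest of the enzymes in that line. *Phgdh* in 4T1 was at 1613, 1373 and 1498 CPM with DMSO and 1259, 1233 and 1368 CPM with ponatinib, a log2 fold change of -0.22 (SE 0.08, edgeR adjusted p = 0.0378). Those 4T1 groups were separated by a narrow margin, and the call was lost without DMSO replicate 1 or 3 or ponatinib replicate 1 or 2 (edgeR adjusted p 0.0813 to 0.162). *PSAT1* was at 294, 318 and 298 CPM with DMSO and 356, 441 and 439.9 CPM with ponatinib in MDA-MB-231, giving a log2 fold change of 0.44 (SE 0.09, edgeR adjusted p = 0.00162). *Psat1* was at 659.8, 719 and 723 CPM with DMSO and 533, 564 and 557 CPM with ponatinib in 4T1, a log2 fold change of -0.35 (SE 0.07, edgeR adjusted p = 0.00105). Its groups did not overlap in either line. *PSPH*, the phosphatase of the last step, was at 42.0, 44.3 and 44.2 CPM with DMSO and 54.1, 63.1 and 57.8 CPM with ponatinib in MDA-MB-231, giving a log2 fold change of 0.42 (SE 0.09, edgeR adjusted p = 0.00149). *Psph* was at 228, 234 and 254 CPM with DMSO and 156, 184 and 175 CPM with ponatinib in 4T1, a log2 fold change of -0.48 (SE 0.08, edgeR adjusted p = 0.00014). In mouse, exons of *Psph* overlap those of *Cct6a*, which held 22427 counts beside 22712 for *Psph*, so how reads were divided between them is uncertain.

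*SHMT2* was at 715, 658 and 660.3 CPM with DMSO and 872, 857 and 882 CPM with ponatinib in MDA-MB-231, giving a log2 fold change of 0.36 (SE 0.07, edgeR adjusted p = 0.00114). *Shmt2* in 4T1 was at 1169, 989 and 963 CPM with DMSO and 680.2, 654 and 699 CPM with ponatinib, a log2 fold change of -0.62 (SE 0.09, edgeR adjusted p = 2.53e-05). Beside these, the next mitochondrial folate enzyme, *MTHFD2*, was not called in MDA-MB-231. It stood at 35.2 to 39.1 CPM with DMSO and 32.4 to 39.3 CPM with ponatinib, a log2 fold change of -0.02 (SE 0.10, edgeR adjusted p = 0.888), with overlapping groups. *Mthfd2* fell in 4T1, at 483 to 512 CPM with DMSO and 359 to 378 CPM with ponatinib, a log2 fold change of -0.43 (SE 0.07, edgeR adjusted p = 0.000121). *ALDH1L2*, a mitochondrial folate dehydrogenase, did not pass the filter in MDA-MB-231, where its highest library was at 0.663 CPM. It overlaps *WASHC4*, which held 4362 counts there. In 4T1 *Aldh1l2* was abundant, at 297, 322 and 296 CPM with DMSO and 195, 188 and 172 CPM with ponatinib, a log2 fold change of -0.72 (SE 0.08, edgeR adjusted p = 1.8e-06). Exons of *Nopchap1* overlap it there on the opposite strand, and held 7520 counts beside 27070 for *Aldh1l2*.

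*ASNS*, which makes asparagine, was at 182, 186 and 172 CPM with DMSO and 248, 235 and 239 CPM with ponatinib in MDA-MB-231, giving a log2 fold change of 0.42 (SE 0.07, edgeR adjusted p = 0.000402). *Asns* was at 719, 737 and 767 CPM with DMSO and 586, 614 and 619.9 CPM with ponatinib in 4T1, a log2 fold change of -0.29 (SE 0.07, edgeR adjusted p = 0.00329). The ponatinib libraries were all higher in the human line and all lower in the mouse line. *CTH*, which makes cysteine from cystathionine, was at 18.4, 18.9 and 18.2 CPM with DMSO and 27.8, 29.5 and 31.3 CPM with ponatinib in MDA-MB-231, giving a log2 fold change of 0.67 (SE 0.10, edgeR adjusted p = 0.000111). *Cth* fell most of the enzymes in 4T1, at 255, 249.7 and 258 CPM with DMSO and 131, 134 and 139 CPM with ponatinib, a log2 fold change of -0.92 (SE 0.07, edgeR adjusted p = 5.09e-08). Its difference between the lines, 1.59 (SE 0.11, edgeR adjusted p = 1.1e-09) on the log2 scale, was the widest of the enzymes. *PCK2*, a mitochondrial enzyme that makes phosphoenolpyruvate, was at 109.6, 103 and 103 CPM with DMSO and 179.9, 153 and 167 CPM with ponatinib in MDA-MB-231, giving a log2 fold change of 0.66 (SE 0.08, edgeR adjusted p = 3.3e-05). *Pck2* was at 378, 326 and 342 CPM with DMSO and 306, 304 and 309 CPM with ponatinib in 4T1, a log2 fold change of -0.19 (SE 0.08, edgeR adjusted p = 0.0436). That 4T1 call was lost without DMSO replicate 1 or 3 or any one of the 3 ponatinib replicates (edgeR adjusted p 0.0673 to 0.133). *GPT2*, an alanine aminotransferase, rose in MDA-MB-231, at 71.8 to 77.8 CPM with DMSO and 94.0 to 94.9 CPM with ponatinib, a log2 fold change of 0.32 (SE 0.07, edgeR adjusted p = 0.00326). In 4T1 *Gpt2* was at 259 to 270.4 CPM with DMSO and 244 to 247 CPM with ponatinib, a log2 fold change of -0.10 (SE 0.07, edgeR adjusted p = 0.226). *CBS*, which makes the substrate of CTH, held 9 counts in the 6 MDA-MB-231 libraries together and was at most 0.434 CPM in 4T1, and it was tested in neither line.

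Of the 7 transporters, 4 rose and 2 fell in MDA-MB-231 (median log2 fold change 0.28), and 5 fell and 0 rose in 4T1 (median -0.58). *SLC6A9*, a glycine transporter, was at 22.7, 19.5 and 20.01 CPM with DMSO and 60.8, 59.4 and 56.3 CPM with ponatinib in MDA-MB-231, giving a log2 fold change of 1.505 (SE 0.09, edgeR adjusted p = 2.05e-07), the largest of the transporters. *Slc6a9* in 4T1 was at 129, 119 and 105 CPM with DMSO and 102, 94.4 and 90.3 CPM with ponatinib, a log2 fold change of -0.30 (SE 0.09, edgeR adjusted p = 0.00736). The groups did not overlap in either line. Exons of *CCDC24* in human and *B4galt2* in mouse overlap the gene on the opposite strand. They held 22.5% and 12.5% as many counts. *SLC7A5*, the light chain of the leucine exchanger LAT1, was at 679, 616 and 614 CPM with DMSO and 854, 859 and 882 CPM with ponatinib in MDA-MB-231, giving a log2 fold change of 0.44 (SE 0.07, edgeR adjusted p = 0.000325). *Slc7a5* was at 1004, 1008 and 872 CPM with DMSO and 686, 606 and 619 CPM with ponatinib in 4T1, a log2 fold change of -0.59 (SE 0.08, edgeR adjusted p = 3.05e-05). With ponatinib the order of the lines reversed in CPM, each ponatinib library of MDA-MB-231 lying above each of 4T1. *SLC3A2*, the heavy chain that pairs with SLC7A5, was at 775 to 884 CPM with DMSO and 922 to 1085 CPM with ponatinib in MDA-MB-231, giving a log2 fold change of 0.28 (SE 0.09, edgeR adjusted p = 0.0155). The call was lost without DMSO replicate 2 or 3 (adjusted p 0.0761 and 0.0794 by edgeR). In 4T1 *Slc3a2* was at 1326 to 1458 CPM with DMSO and 1276 to 1326 CPM with ponatinib, overlapping groups with a log2 fold change of -0.09 (SE 0.08, edgeR adjusted p = 0.312). Its difference between the lines, 0.38 (SE 0.12, edgeR adjusted p = 0.0161) on the log2 scale, was lost without MDA-MB-231 DMSO replicate 2 or 3 (adjusted p 0.0514 and 0.0502).

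*SLC7A1*, a carrier of arginine and lysine, ran against the rise of the group in MDA-MB-231, at 175, 199 and 200.4 CPM with DMSO and 98.4, 114 and 120.3 CPM with ponatinib, a log2 fold change of -0.79 (SE 0.09, edgeR adjusted p = 2.59e-05). It fell in 4T1 as well, where *Slc7a1* was at 755, 788 and 682 CPM with DMSO and 548, 468 and 431 CPM with ponatinib, a log2 fold change of -0.62 (SE 0.09, edgeR adjusted p = 5.5e-05). The difference between the lines was -0.17 (SE 0.14, edgeR adjusted p = 0.373) and did not pass the threshold. *SLC1A5*, the glutamine carrier ASCT2, also fell in both lines, at 683 to 724 CPM with DMSO and 576 to 631 CPM with ponatinib in MDA-MB-231, giving a log2 fold change of -0.21 (SE 0.07, edgeR adjusted p = 0.0299). The MDA-MB-231 call of *SLC1A5* was lost without DMSO replicate 2 or 3 or ponatinib replicate 2 or 3 (edgeR adjusted p 0.0541 to 0.110). In 4T1 *Slc1a5* was at 286 to 295 CPM with DMSO and 187 to 201 CPM with ponatinib, a log2 fold change of -0.59 (SE 0.07, edgeR adjusted p = 5.27e-06). *SLC1A4*, a carrier of serine, alanine and other small neutral amino acids, rose in MDA-MB-231, at 38.3 to 46.8 CPM with DMSO and 62.4 to 68.3 CPM with ponatinib, a log2 fold change of 0.67 (SE 0.10, edgeR adjusted p = 0.000111). In 4T1 it was at 386 to 406 CPM with DMSO and 342 to 373 CPM with ponatinib, a log2 fold change of -0.15 (SE 0.07, edgeR adjusted p = 0.0817). It passed the threshold with the replicate block (edgeR adjusted p = 0.0449), with DESeq2's defaults (0.0466) and without DMSO replicate 1 (0.0485). *SLC38A2*, a sodium-coupled carrier of neutral amino acids, was at 111 to 129 CPM with DMSO and 117 to 156 CPM with ponatinib in MDA-MB-231, giving a log2 fold change of 0.20 (SE 0.11, edgeR adjusted p = 0.137). It was called higher with the replicate block (edgeR adjusted p = 0.000899) and without ponatinib replicate 1 (0.00569). *Slc38a2* fell in 4T1, at 632 to 709 CPM with DMSO and 413 to 473 CPM with ponatinib, a log2 fold change of -0.58 (SE 0.08, edgeR adjusted p = 2.57e-05).

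**Figure D4:**
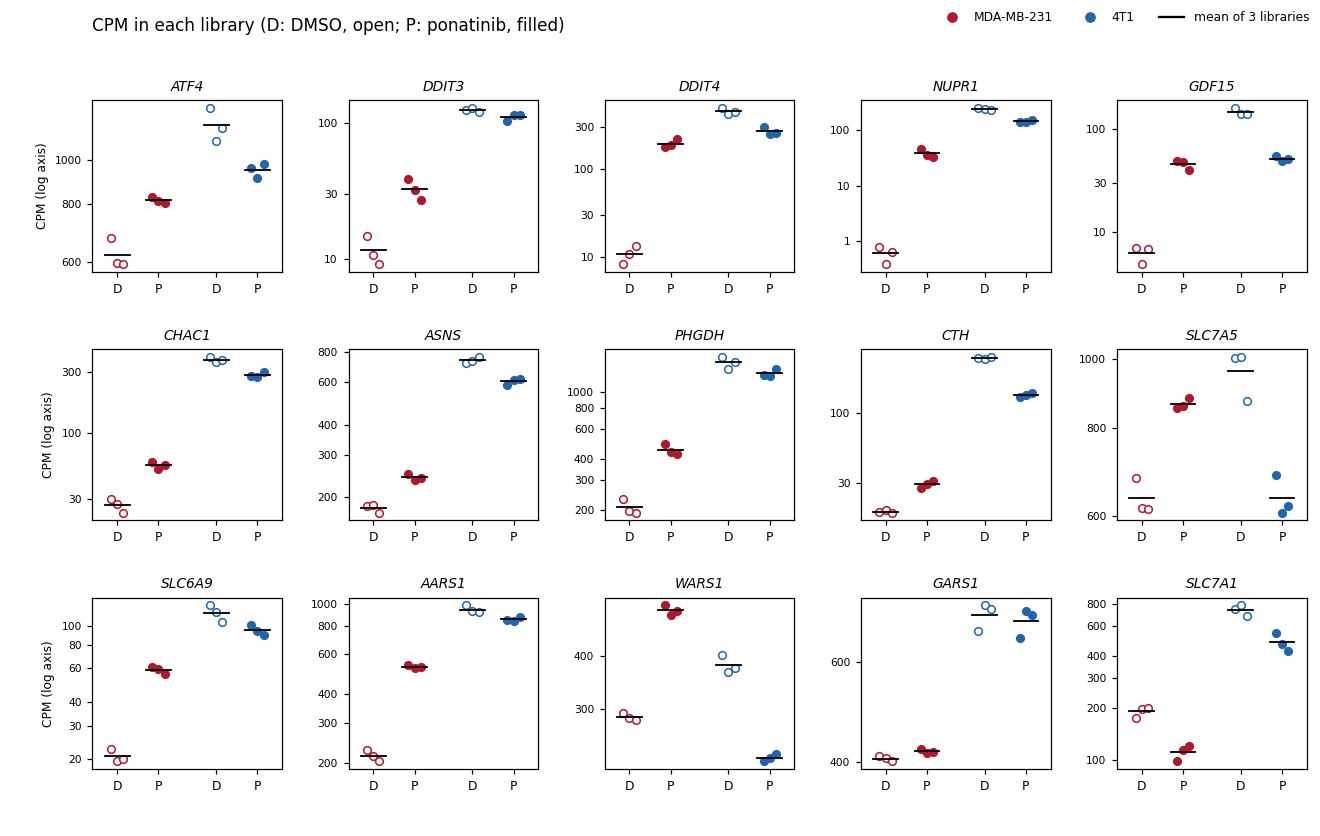
CPM on a log axis in each library for 15 members, MDA-MB-231 in red and 4T1 in blue, with open circles for DMSO (D), filled circles for ponatinib (P) and a bar at the mean of 3 libraries; each panel has its own axis. For *DDIT4* and *GDF15* the lines lie far apart with DMSO and close with ponatinib, *GARS1* barely moves, and *SLC7A1* falls in both lines.

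Of the 13 genes of tRNA charging and export, 6 rose and 1 fell in MDA-MB-231 (median log2 fold change 0.16), and 7 fell and 0 rose in 4T1 (median -0.20), the medians nearest 0 of the 4 roles. Over all genes tested, 27.2% rose and 26.8% fell in MDA-MB-231, and 29.5% rose and 29.4% fell in 4T1. *AARS1*, which charges alanine, was at 228, 215 and 203 CPM with DMSO and 537, 521 and 528 CPM with ponatinib in MDA-MB-231, giving a log2 fold change of 1.30 (SE 0.07, edgeR adjusted p = 1.09e-07). In 4T1 *Aars1* was at 984, 927 and 919.7 CPM with DMSO and 853, 841 and 873 CPM with ponatinib, a log2 fold change of -0.14 (SE 0.07, edgeR adjusted p = 0.111). The human groups were far apart, while the mouse groups were close and did not overlap. *WARS1*, which charges tryptophan, was at 293, 285 and 282 CPM with DMSO and 526, 499 and 510.1 CPM with ponatinib in MDA-MB-231, giving a log2 fold change of 0.83 (SE 0.07, edgeR adjusted p = 1.65e-06). *Wars1* fell most of the role in 4T1, at 403, 367 and 375 CPM with DMSO and 226, 231 and 235 CPM with ponatinib, a log2 fold change of -0.73 (SE 0.07, edgeR adjusted p = 8.56e-07). The line difference of *WARS1* was 1.56 (SE 0.10, edgeR adjusted p = 4.82e-10) on the log2 scale, the widest of the role. *XPOT*, which exports tRNAs from the nucleus, was at 112, 133 and 121 CPM with DMSO and 158, 179 and 193 CPM with ponatinib in MDA-MB-231, giving a log2 fold change of 0.54 (SE 0.09, edgeR adjusted p = 0.0005). *Xpot* was at 261, 292 and 279.9 CPM with DMSO and 212, 206 and 192 CPM with ponatinib in 4T1, a log2 fold change of -0.45 (SE 0.07, edgeR adjusted p = 0.000125). Its groups lay apart in both lines, in opposite order.

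*CARS1*, the cysteine enzyme, was at 217, 209 and 194 CPM with DMSO and 318, 276 and 274 CPM with ponatinib in MDA-MB-231, giving a log2 fold change of 0.49 (SE 0.08, edgeR adjusted p = 0.000426). *Cars1* was at 341, 328 and 316 CPM with DMSO and 263, 264 and 281 CPM with ponatinib in 4T1, a log2 fold change of -0.29 (SE 0.07, edgeR adjusted p = 0.00317). *EPRS1* encodes the fused enzyme for glutamate and proline. It was at 145, 165 and 150.1 CPM with DMSO and 173, 179.7 and 186 CPM with ponatinib in MDA-MB-231, giving a log2 fold change of 0.23 (SE 0.08, edgeR adjusted p = 0.0263). That call was lost without DMSO replicate 1 or 3 or ponatinib replicate 2 or 3 (adjusted p 0.0758 to 0.107). *Eprs1* was at 535, 610.3 and 576 CPM with DMSO and 442, 458 and 444 CPM with ponatinib in 4T1, a log2 fold change of -0.36 (SE 0.08, edgeR adjusted p = 0.000935). All 3 ponatinib libraries of both genes lay above the DMSO libraries in MDA-MB-231 and below them in 4T1. *SARS1*, which charges serine, rose in MDA-MB-231, at 483 to 521 CPM with DMSO and 669.7 to 731 CPM with ponatinib, a log2 fold change of 0.48 (SE 0.07, edgeR adjusted p = 0.000176). It was at 1091 to 1141 CPM with DMSO and 957 to 1086 CPM with ponatinib in 4T1, a log2 fold change of -0.11 that was not called. *TARS1*, which charges threonine, was the 1 member whose log2 fold change was lower in MDA-MB-231 than in 4T1, by -0.33 (SE 0.10, edgeR adjusted p = 0.0119). It was at 387 to 413 CPM with DMSO and 333 to 354 CPM with ponatinib in MDA-MB-231, giving a log2 fold change of -0.19 (SE 0.07, edgeR adjusted p = 0.0368). This was lost without DMSO replicate 2 or 3 or any one ponatinib replicate (adjusted p 0.0670 to 0.131). *Tars1* in 4T1 was at 354 to 383 CPM with DMSO and 399 to 404 CPM with ponatinib, a log2 fold change of 0.13 (SE 0.07, edgeR adjusted p = 0.119).

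The enzymes for leucine, asparagine and tyrosine fell in 4T1 with small changes. The log2 fold changes were -0.20 for *Lars1*, -0.25 for *Nars1* and -0.28 for *Yars1*, and their MDA-MB-231 groups overlapped. The *Lars1* call was lost without DMSO replicate 2 or 3 or any one ponatinib replicate of 4T1 (edgeR adjusted p 0.0710 to 0.126). *Yars1* overlaps *Nhsl3*, which held 34839 counts beside 27833. With the replicate block the line difference of *YARS1*, 0.22 on the log2 scale, passed the threshold (edgeR adjusted p = 0.0160), as it did with DESeq2's defaults (DESeq2 adjusted p = 0.0137) and a joint TMM scaling (edgeR adjusted p = 0.0260). *GARS1*, for glycine, stood at 401 to 409 CPM with DMSO and 414 to 420.4 CPM with ponatinib in MDA-MB-231 and, in 4T1, 679 to 754 CPM with DMSO and 659 to 736 CPM with ponatinib, with log2 fold changes of 0.04 and -0.04 that were not called. For *IARS1*, the isoleucine enzyme, the log2 fold changes were 0.09 and -0.03, and for *MARS1*, the methionine enzyme, 0.16 and 0.11. With the replicate block *IARS1* (edgeR adjusted p = 0.0384) and *MARS1* (0.00206) were called higher in MDA-MB-231, and *MARS1* also with total counts (edgeR adjusted p = 0.00925) and with at least 10 counts in every library (0.0421).

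Over all genes tested, 27.2% rose and 26.8% fell in MDA-MB-231, and 29.5% rose and 29.4% fell in 4T1. The lists of other genes below are to be read beside these shares. Of 11 cytosolic synthetases outside the group and scaffold proteins that hold several synthetases together, 1 rose and 10 fell in MDA-MB-231 (median log2 fold change -0.48). In 4T1, 1 rose and 6 fell (median -0.25). *QARS1*, which charges glutamine, was the 1 that rose, with a log2 fold change of 0.33 (SE 0.07, edgeR adjusted p = 0.00214) in MDA-MB-231, and *Qars1* rose by 0.35 (SE 0.07, adjusted p = 0.000837) in 4T1. *FARSB*, a subunit of the phenylalanine enzyme, fell most in both lines, with log2 fold changes of -1.04 (edgeR adjusted p = 3.71e-06) and -0.69 (adjusted p = 1.79e-05). In MDA-MB-231 it averaged (n = 3, ± SD) 51.2 ± 1.72 CPM with DMSO and 24.9 ± 2.43 CPM with ponatinib, and 243 ± 26.0 and 151 ± 13.8 CPM in 4T1. The mitochondrial synthetases rose in 3 and fell in 7 of 16 cases in MDA-MB-231 and rose in 7 and fell in 2 of 17 in 4T1. *MARS2*, for mitochondrial methionine, fell most in both, with log2 fold changes of -1.41 and -0.54.

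**Figure D5:**
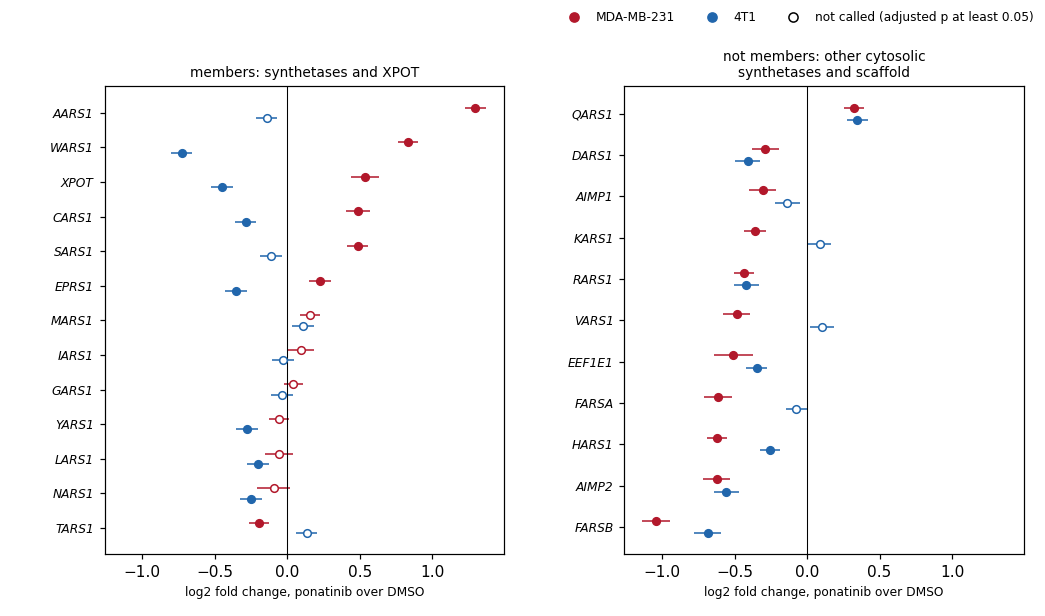
Log2 fold change (ponatinib over DMSO) with standard errors for the tRNA genes of the group (left) and the cytosolic synthetases and scaffold proteins outside it (right), MDA-MB-231 in red and 4T1 in blue, open circles not called. In MDA-MB-231, 6 of 13 members rose, and 10 of 11 genes outside the group fell.

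Another list held the eIF2 kinases and the subunits of eIF2, of its exchange factor eIF2B and of its phosphatase. It also held *DNAJC3*, *IMPACT*, *DELE1* and *OMA1*. Of this list, 2 of 21 rose and 8 fell in MDA-MB-231, beside 27.2% and 26.8% of all genes tested. In 4T1, 4 of 20 rose and 9 fell, beside 29.5% and 29.4%. *PPP1R15A*, which encodes GADD34, the ATF4-induced subunit that brings the phosphatase to eIF2, fell most in MDA-MB-231. It averaged 708 ± 72.6 CPM with DMSO and 309 ± 16.7 CPM with ponatinib (n = 3, ± SD), which is a log2 fold change of -1.19 (SE 0.09, edgeR adjusted p = 7.73e-07). *OMA1*, a mitochondrial protease of the stress signal, rose most, by 0.95 (SE 0.18, edgeR adjusted p = 0.000975). In 4T1, *Dnajc3*, an inhibitor of the kinase PERK, fell by 0.99 (SE 0.11, edgeR adjusted p = 2.18e-06) and *Eif2b4* rose by 0.50 (SE 0.10, adjusted p = 0.000423). Other genes described as ATF4 or CHOP targets rose in 7 and fell in 3 of 13 cases in MDA-MB-231 and rose in 2 and fell in 7 of 15 in 4T1. *KLHL24* rose most in MDA-MB-231, by 2.21 (SE 0.16, edgeR adjusted p = 8.03e-07), and *TNFRSF10B*, a death receptor, fell by 0.61 (SE 0.07, adjusted p = 3.32e-05). In 4T1, *Fgf21*, an endocrine stress hormone, averaged 41.9 ± 4.87 CPM with DMSO and 9.52 ± 1.04 CPM with ponatinib (n = 3, ± SD), which is a log2 fold change of -2.14 (SE 0.12, edgeR adjusted p = 3.28e-09). *Pmaip1*, which encodes the pro-death protein NOXA, rose by 0.94 (SE 0.09, edgeR adjusted p = 7.89e-07).

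Chaperones and other genes of the XBP1 and ATF6 arms of the unfolded protein response fell in 9 and rose in 2 of 16 cases in MDA-MB-231. They fell in 14 and rose in 0 of 16 in 4T1. Of all genes tested, 26.8% fell and 27.2% rose in MDA-MB-231, and 29.4% fell and 29.5% rose in 4T1. *Hspa5*, the chaperone BiP, averaged 2714 ± 72.4 CPM with DMSO and 882 ± 19.4 CPM with ponatinib in 4T1 (± SD of 3 libraries), which is a log2 fold change of -1.62 (SE 0.08, edgeR adjusted p = 4.14e-10). In MDA-MB-231, *SDF2L1* fell by 1.24 (SE 0.14, edgeR adjusted p = 1.63e-05) and *HERPUD1* rose by 0.87 (SE 0.09, adjusted p = 6.32e-06). Other amino acid and one-carbon genes outside the group rose in 2 and fell in 6 of 17 cases in MDA-MB-231, and rose in 2 and fell in 10 of 16 in 4T1. Among them *MTHFD1*, the cytosolic folate enzyme, fell by 0.73 (SE 0.08, edgeR adjusted p = 2.09e-05) and *GLUL*, glutamine synthetase, rose by 0.38 (SE 0.09, adjusted p = 0.00353) in MDA-MB-231. In 4T1, *Bcat1*, which acts on branched-chain amino acids, fell by 1.18 (SE 0.07, edgeR adjusted p = 5.38e-09) and *Slc36a1*, a lysosomal amino acid carrier, rose by 0.81 (SE 0.10, adjusted p = 9.85e-06).

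The lines differed in the level of the group before treatment. Per kilobase of merged exons, 37 of the 42 members tested in both lines had a higher mean CPM in 4T1 than in MDA-MB-231 with DMSO, with a median log2 ratio of 1.34, which was 0.42 with ponatinib. Over all shared genes, 4805 of 9836 were higher in 4T1 with DMSO. Their median log2 ratio was -0.05 with DMSO and -0.03 with ponatinib. For the members, the median distance between the lines, the size of the log2 ratio, went from 1.37 to 0.82. With ponatinib 32 members (76.2%) were closer, beside 58.3% of 9836 shared genes, whose median distance went from 1.33 to 1.19. For *NUPR1* the ratio of 4T1 over MDA-MB-231 went from 569 to 5.46, for *DDIT4* from 31.9 to 1.08 and for *GDF15* from 22.1 to 1.04. The *NUPR1* level in MDA-MB-231 with DMSO rests on 28 counts in 3 libraries, near the floor. For *STC2*, at 22.8 and 23.8, and *GARS1*, at 3.76 and 3.56, the ratio hardly moved. These ratios rest on annotated lengths in 2 species and on the same DMSO libraries as the fold changes, and are given as a description without a test. The lengths can differ widely between the annotations, as for *GARS1*, at 17366 bases in human and 8255 in mouse.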

How the data were processed

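The authors' deposited counts per gene were used, whole numbers without normalization. Per the methods and the submitters' processing notes, reads were aligned with HISAT2 to hg38 or GRCm39 and counted with HTSeq, and tool versions, gene annotation and strand setting are not given in the sources used here. Of the identifiers, 81.9% (human) and 91.1% (mouse) matched GENCODE v44 and vM39, holding 99.3% and 99.8% of the counts, and symbols, lengths and positions came from there. The members and gene lists were chosen with earlier results of these data known.

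Differences were computed within each line with edgeR 4.0.16 under R 4.3.3: filterByExpr removed low counts, TMM set the scaling, and p-values of the quasi-likelihood test were adjusted by Benjamini-Hochberg over all genes tested (threshold 0.05), and the line by treatment interaction over symbols shared by both species with each line's own TMM factors. CPM use TMM-scaled totals, and the SE is the fold change over the square root of F. The steps were tested on simulated counts with far fewer changed genes than were called here, balanced in direction, and the same dispersion for all genes. That run checks the code, and cannot speak for the scaling or the spread of single genes in these data. All members are named, and library values are given for *ATF4*, for members called in opposite directions, and for the pair with the largest changes per role and line; other lists are given by counts with the largest rise and fall. No library copied another (chi-square per gene between replicates 2.99 to 16.6). In every group replicates 2 and 3 were the closest pair, so replicate 1 lay apart. That pair stood at 2.99 (DMSO) and 3.97 (ponatinib) in MDA-MB-231 and at 7.11 and 5.32 in 4T1. What the replicate number marks is not stated. Exons of another annotated gene that is present in the count files overlap 15 members in each line. The most counted such gene held over 10% as many counts as the member for 4 members in MDA-MB-231 (*ALDH1L2*, *ATF5*, *DDIT3* and *SLC6A9*). In 4T1 this held for 9 (*Aldh1l2*, *Atf5*, *Cebpb*, *Ddit3*, *Mars1*, *Psph*, *Slc3a2*, *Slc6a9* and *Yars1*). With the strand setting not stated, the values of these members are less certain. Further members, among them *NUPR1* in both lines, overlap only annotated genes that are absent from the count files. Libraries of the same number deviated together from their group means (for MDA-MB-231, correlations of 0.345, 0.111 and 0.133; for 4T1, 0.213, 0.119 and 0.115), each over 0.1, while unmatched numbers reached 0.163 and 0.119, so the pairing rests on a weak sign in the data. In each line the libraries numbered 1 gave the largest correlation. The main tests carried no block, and the blocked value is given where it changes a call. Alternatives were DESeq2 1.42.0, its size factors, total counts, an unfiltered table, a minimum of 10 counts per library, a block for the replicate number, leaving out each library, a joint TMM for the interaction and, added after seeing the data, the study's threshold for differential genes.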

Additional observations from a re-analysis of the deposited data

Results flagged for a closer look

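Of 43 members tested, 33 had a log2 fold change that differed between the lines (interaction test of edgeR, adjusted p under 0.05). Each difference is given as the value in MDA-MB-231 minus that in 4T1. Such calls were common, since the same test gave a positive difference for 18.9% of the 12488 shared genes and a negative one for 23.1%. The regulators and stress effectors differed by 6.69 for *NUPR1*, 4.88 for *DDIT4*, 4.41 for *GDF15*, 1.67 for *DDIT3*, 1.45 for *CHAC1*, 1.21 for *ATF3*, 0.94 for *CEBPG*, 0.79 for *TRIB3*, 0.72 for *ATF4*, 0.68 for *SESN2* and 0.55 for *ATF5*. The enzymes differed by 1.59 for *CTH*, 1.35 for *PHGDH*, 0.98 for *SHMT2*, 0.90 for *PSPH*, 0.85 for *PCK2*, 0.79 for *PSAT1*, 0.71 for *ASNS*, 0.42 for *GPT2* and 0.41 for *MTHFD2*. The transporters differed by 1.80 for *SLC6A9*, 1.04 for *SLC7A5*, 0.82 for *SLC1A4*, 0.78 for *SLC38A2*, 0.38 for *SLC1A5* and 0.38 for *SLC3A2*. The genes of tRNA charging and export differed by 1.56 for *WARS1*, 1.44 for *AARS1*, 0.98 for *XPOT*, 0.77 for *CARS1*, 0.60 for *SARS1* and 0.58 for *EPRS1*. The 1 member with a lower value in MDA-MB-231 was *TARS1*, at -0.33.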

How the results depend on the processing

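The number of members that rose in MDA-MB-231 and fell in 4T1 was 16 (total counts) to 24 (replicate block) over the settings that changed the test, and 18 to 22 with 1 library left out, and the reverse pattern was held by 0 members in each of these. With the replicate number as a block, 32 members rose and 3 fell in MDA-MB-231, 2 rose and 33 fell in 4T1, and 33 differed upward and 1 downward between the lines. All 32 calls were kept in each line, and the block changed no call beyond those given with the genes. Calls over all genes grew with the block as well. There 4802 rose and 4873 fell in MDA-MB-231, in place of 3975 and 3918. In 4T1, 4310 rose and 4310 fell, in place of 3925 and 3909. Between the lines, 2949 shared genes differed upward and 3552 downward, in place of 2356 and 2890. With 1 library left out, 25 to 30 members rose and 1 to 3 fell in MDA-MB-231, 2 rose and 26 to 28 fell in 4T1, and 31 to 33 differed upward and 1 downward between the lines. Over all genes tested, 3466 to 3981 rose and 3414 to 3973 fell in MDA-MB-231 with 1 library left out. In 4T1, 3537 to 4025 rose and 3420 to 4011 fell. The 3 falls in MDA-MB-231 became 1 with total counts, with at least 10 counts in every library and at the study's threshold, and the 2 rises in 4T1 became 4 with total counts (*Mars1* and *Tars1* added) and 1 at the study's threshold. At that threshold, which asks for a larger change, 14 members rose in MDA-MB-231 and 11 fell in 4T1, beside 19.3% and 13.1% of all genes tested. Under total counts *Atf5*, *Lars1*, *Nars1*, *Pck2*, *Phgdh*, *Sesn2*, *Slc6a9* and *Yars1* were no longer called lower in 4T1, nor *SLC1A5* and *TARS1* in MDA-MB-231; without a filter *ATF5*, *EPRS1*, *Pck2* and *Sesn2* were lost, with at least 10 counts *SLC1A5*, *TARS1*, *Pck2*, *Phgdh* and *Sesn2*, and with DESeq2's defaults *ATF5* and *STC2*; the cause was not tested. *NUPR1*, with fewer than 10 counts in a DMSO library, was not tested under the minimum of 10. No member that was called changed direction. The 3 libraries per group limit how small a change can be called, and most calls that were lost had a log2 fold change under 0.3 in size.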
